A study of Sorghum bicolor with 96 samples.

Results

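A module of 59 sorghum genes was defined by a heat response that passed a threshold at zeitgeber time (ZT) 15 and at none of the other times sampled. The 59 genes were found among 16216 genes with a mean of at least 2 CPM, that is, 2 counts in every 1000000 of a library, over all libraries, out of 34129 genes in the deposited table. For each gene the mean CPM of a group was put on a log2 scale with 1 added and centred on the median of the group, and D is the stress value minus the control value. A member had a D of at least 1 under heat at ZT15 in both genotype labels of the heat experiment, a D under 1 at the other 6 combinations of label and time under heat, and a D between -1 and 1 under cold at ZT1 in both labels of the cold experiment. The rule allows up to 150 genes, and fewer than that met it. It therefore used the responses of every heat group and of the cold groups at ZT1, and what follows on those groups describes the members and tests nothing about them. The cold groups at ZT6, ZT9 and ZT15 entered it through the mean level over all libraries alone.

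Leaves of sorghum, a cereal crop, were collected after 1 h of stress or in control conditions, at ZT1, ZT6, ZT9 and ZT15, where zeitgeber time is read in hours from lights on. The heat experiment exposed plants labelled RTX430 and Macia to 42 °C, and the cold experiment exposed plants labelled RTX430 and SC224 to 10 °C, each against controls of the same label and time. Growth before the stress was at 30 °C in the day and 20 °C at night for every group, and the submitters call RTX430 sensitive to temperature and Macia and SC224 tolerant. Each of the 32 groups holds 3 libraries of polyA RNA that the labels call biological replicates, so p-values measure the spread between these libraries. The labels give no plant age and no light schedule, and for that reason the late time is called ZT15 here and not night.

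The 96 libraries held 1059841 to 11545393 counts, with a median of 3642164.5, and those of the heat groups at ZT15 held 2245457 to 6785701. The same label did not stand for the same set of expressed genes in both experiments: 250 genes were above 3 CPM in one and under 0.05 CPM in the other between cold and heat libraries labelled RTX430, as medians over the 24 libraries of a label, against 6 genes between cold SC224 and heat RTX430. The label names are therefore used only within their own experiment, and no value is compared between RTX430 of one experiment and RTX430 of the other. In the heat and the cold experiment, 1 control library each carried markers of several labels. In replicate 1 of the heat RTX430 controls at ZT15, 59 genes otherwise seen in cold RTX430 summed to 415 CPM and 45 genes otherwise seen in Macia summed to 300 CPM. The other 2 libraries of that group had no more than 5.76 and 7.89 CPM. In replicate 1 the 33 genes seen in cold SC224 and heat RTX430 alone summed to 152 CPM. In the other 2 libraries they summed to 523 and 719 CPM. In replicate 1 of the cold SC224 controls at ZT1 the cold RTX430 and Macia sums were 130 and 194 CPM. The 33 genes summed to 112 CPM there, against 440 and 525 CPM in the other 2 libraries of that group. In both mixed libraries the set of their own label had the lowest sum. None of the 59 members is among those marker genes. The main counts that rest on either library are given with and without it. Other values keep that library, among them single-gene values, bounds against the floor and splits over both labels.

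Heat makes proteins unfold, and plants answer it within minutes through heat shock transcription factors that switch on chaperones and other protective genes. The circadian clock and the light cycle set the level of many plant transcripts through the day, and they can also change how strongly a stress acts on a gene, which is known as gating. A gene can thus show a response at a single time either where its stressed level is particular to that time or where its unstressed level is. The deposited files do not pair the gene identifiers with names, and 0 of the 59 members matched the reference table, so members are given by identifier, with no name, role or sequence. In bulk leaf RNA, fewer cells of a type and less RNA per cell cannot be told apart.

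At ZT15 the median member stood near 6 CPM in controls and near 18 CPM after 1 h at 42 °C, in both labels alike. On the scale of CPM corrected by TMM factors, used for all levels here, the median over the 59 members was 19.9, 17.3 and 18.4 CPM in the 3 heated RTX430 libraries, against 5.82, 6.46 and 6.85 CPM in their controls. It was 18.8, 15.98 and 18.1 CPM in the 3 heated Macia libraries, against 5.62, 6.43 and 7.07 CPM in theirs. No heated library overlapped a control library in this median in either label. The rule asked for a rise between these same groups in both labels, so this separation describes the choice of members and tests nothing. Single members spanned a wide range of abundance at that time. Their group means ran from 2.45 to 483 CPM in heated RTX430 leaves and from 0.189 to 224 CPM in the controls, and from 1.85 to 590 CPM in heated Macia leaves and from 0.158 to 283 CPM in the controls.

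**Figure D1:**
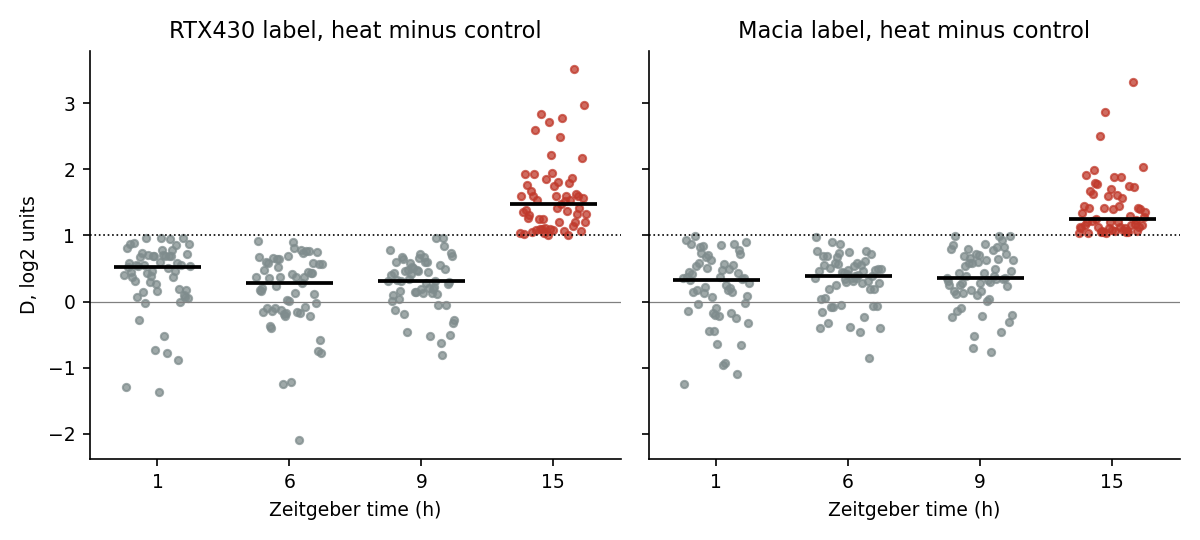
D (log2 units, stress minus control, centred on the group median) of the 59 members at each zeitgeber time (h) under heat, in the RTX430 label (left panel) and the Macia label (right panel). Each point is a member, black bars are medians, and the dotted line is the threshold of 1 used by the rule; at ZT15 all points lie at or above it by construction, with medians of 1.48 and 1.25, and at the other times medians lie between 0.28 and 0.52.

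The responses that chose the members were mostly between 2-fold and 4-fold. The median log2 fold change of the 59 members, fitted with edgeR, was 1.47 in RTX430 and 1.34 in Macia, with ranges of 1.03 to 5.22 and 1.04 to 4.88, while the median over all genes tested was -0.18 and -0.11. A 4-fold difference was reached by 14 members in RTX430 and by 9 in Macia. All 59 members passed the filter on low counts in both experiments. At an adjusted p under 0.05, 55 of the 59 passed in RTX430 and 49 in Macia, where 16.3% and 10.7% of all 18648 genes passed as raised. All 3 heated libraries stood above all 3 control libraries for 57 members in RTX430 and 55 in Macia, against 21.2% and 14.7% of all genes. Since the rule used these very libraries, those counts are given without a reading. Without the RTX430 control library that carried several markers, 50 members passed in RTX430, the median log2 fold change was 1.51, and 58 members stood above both remaining controls, where 23.7% of all genes did.

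The members just inside the threshold had a smaller D of 1.0151, 1.0102 and 1.0067, and the genes just outside it 0.9931, 0.9852 and 0.9838. In all, 1499 genes had a D of at least 1 in both labels at ZT15, and 1419 of these were left out because another heat D also reached 1. A further 21 were left out by their cold response at ZT1. The edge of the module is soft: 22 of the 59 members kept a D of at least 1 whichever of the 12 heat libraries at ZT15 was left out, and the lowest D of any member without 1 library was 0.534.

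The member with the largest D in both labels was Sobic.007G092000, a gene with 8.34, 14.8 and 3.68 CPM in heated RTX430 leaves at ZT15, against 0, 0.248 and 0.319 CPM in controls. In Macia it had 9.39, 6.82 and 5.65 CPM in heated leaves, against 0, 0.472 and 0 CPM in controls. Each RTX430 control library held at most 3 counts of it, so the fold is given as a lower bound against 3 counts per library: it was at least 13.6-fold higher in heated leaves. At the other 3 times its level was of another order and its heated means were below its control means, with 15.2 to 65.8 CPM in heated RTX430 leaves against 28.6 to 99.5 CPM in controls, and 26.2 to 52.7 CPM in heated Macia leaves against 40.5 to 81.9 CPM in controls. So at ZT15 even the heated libraries of this gene were below every control library of the other times.

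The member next in rank, Sobic.006G186500, had 5.92, 4.79 and 7.57 CPM in heated RTX430 leaves at ZT15, against 0.506, 0.248 and 0.319 CPM in controls. In Macia it had 8.74, 5.75 and 8.76 CPM in heated leaves, against 0.844, 1.23 and 0.505 CPM in controls. Its RTX430 controls were also at 3 counts or fewer, which gives a bound of at least 9.25-fold higher in heated leaves, and the fitted log2 fold change in Macia was 3.08 ± 0.44 (SE). At the other times its control libraries held 9.18 to 36.4 CPM in RTX430 and 10.4 to 45.02 CPM in Macia. In all, 4 members had every RTX430 control library at ZT15 at or under 3 counts and 0 had so in Macia. With these 4 set to their bound, the median log2 fold change of the 59 members in RTX430 stayed at 1.47. That was fixed in advance, since even the lowest of these bounds, 3.72-fold, lies above that median.

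**Figure D2:**
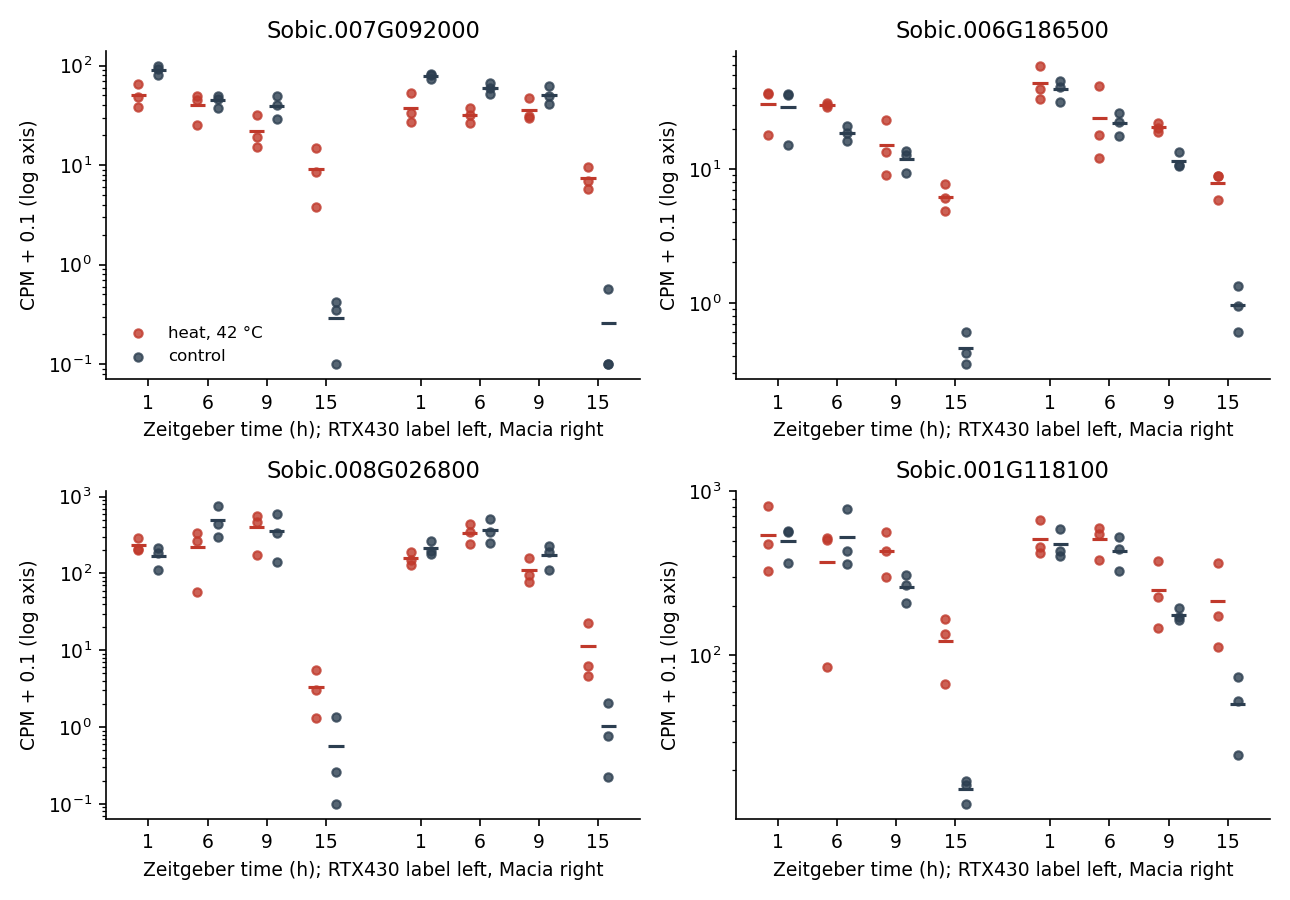
Levels of 4 members in the heat experiment, as TMM-scaled CPM plus 0.1 on a log axis, by zeitgeber time (h), with the RTX430 label on the left and the Macia label on the right of each panel. Red points are the 3 heated libraries and dark points the 3 control libraries of a group, with bars at their means. For Sobic.007G092000 the heated libraries at ZT15 hold 3.68 to 14.8 CPM and the controls at most 0.472 CPM, while controls at the other times hold 28.6 to 99.5 CPM.

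No member passed the test of a difference between the labels in the size of the ZT15 response, at a median standard error of 0.51 log2 units. The log2 fold change was the larger one in RTX430 for 37 of the 59 members, and it differed by 1 or more between the labels for 5. The test of Macia minus RTX430 passed for 0 members with edgeR, and 1 member had an unadjusted p under 0.05, where 0.0483% and 0.0375% of all genes passed as higher and lower. Without the mixed control library it passed for 0 members, with 0 at an unadjusted p under 0.05. The rule asked for a D of at least 1 in both labels, so these counts are no test of agreement between the labels.

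The word only goes further than the data for a share of the module, because the rule limits D at the other times but asks for no difference between times. The median D of the members at ZT1, ZT6 and ZT9 was 0.52, 0.28 and 0.32 in RTX430 and 0.32, 0.39 and 0.36 in Macia, against medians of -0.10 to -0.04 over all kept genes. With edgeR, 19 of the 59 members were called raised by heat at ZT1, ZT6 or ZT9 in at least 1 label, and 40 were called raised at none of these times in either label. The share of all genes for these 2 counts was not computed. In RTX430, 13 members were called raised at ZT1, 4 at ZT6 and 1 at ZT9, where 19.6%, 7.93% and 3.02% of all genes were. These are 22%, 6.78% and 1.69% of the members. In Macia, 10 were called raised at ZT1, 1 at ZT6 and 3 at ZT9, where 19.1%, 3.52% and 7.65% of all genes were. These are 16.9%, 1.69% and 5.08% of the members, so the calls at single times were close to or under the shares of all genes. All 3 heated libraries stood above all 3 controls for 20, 16 and 16 members at ZT1, ZT6 and ZT9 of RTX430, against 22.5%, 14.5% and 8.89% of all genes, and below them for 3, 1 and 2, against 21.5%, 14.6% and 8.35%. For Macia these counts were 16, 14 and 21 above, against 23.1%, 11.4% and 15% of all genes, and 4, 1 and 0 below, against 25.5%, 11.8% and 19.1%. By this measure, the share of members above their controls was larger than that of all genes at each of these times in both labels. The share below was smaller. The rule used these groups, so this too is a description. Heat at ZT1 gave a call as lowered for 1 member in RTX430 and 3 in Macia, against 16% and 18.2% of all genes.

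Set against the mean of the responses at ZT1, ZT6 and ZT9, the response at ZT15 was called larger for 14 members in RTX430 and 9 in Macia, where 1.28% and 0.692% of all genes were. The difference was called in both labels for 6 members, in at least 1 for 17 and in neither for 42, and the matching shares of all genes were not computed. The members' median of that difference was 1.07 log2 units in RTX430 and 1.11 in Macia. Since the rule itself holds the other times under the threshold, these counts are no test of the module. Without the mixed RTX430 control library the count in RTX430 was 10. A heated RTX430 library placed at ZT1 by its title is labelled ZT2 elsewhere, and without it 12 members were called raised at ZT1 and 13 had a larger response at ZT15.

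In unstressed leaves of the cold experiment, part of the members were lower at ZT15 than at ZT6 and ZT9. These libraries entered the rule through the mean level alone, and the shares of all genes given beside the counts are over all genes tested, including those under that mean level. The comparison set the controls at ZT15 against the mean of the controls at ZT6 and ZT9 of the same label, and the ZT1 controls were kept out because the rule used them. In RTX430, 25 of the 59 members were called lower at ZT15 and 1 higher, which is 42.4% and 1.69% of them, against 10.9% and 11.5% of all 18248 genes. In SC224, 34 members were called lower and 0 higher, which is 57.6% of them, against 10.6% and 11.4% of all genes. The median log2 difference of the members was -0.62 in RTX430 and -0.85 in SC224, while the median over all genes was 0.04 in both labels. Of the 59, 23 were called lower in both labels, 36 in at least 1 and 23 in neither. The matching shares of all genes over both labels were not computed.

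**Figure D3:**
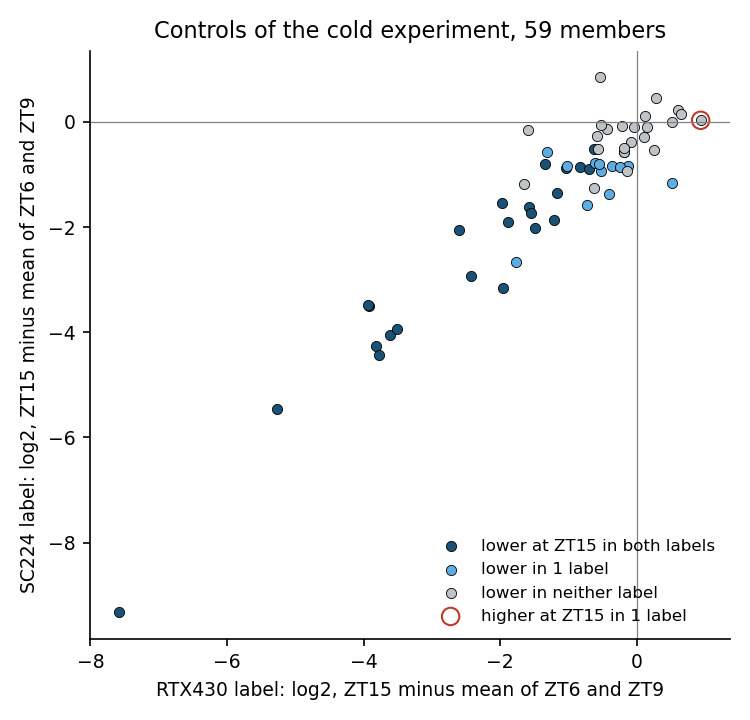
Time of day in unstressed leaves of the cold experiment: log2 difference between controls at ZT15 and the mean of controls at ZT6 and ZT9, in the RTX430 label (horizontal axis) and the SC224 label (vertical axis), 1 point per member. Dark points are the 23 members called lower at ZT15 in both labels, light blue points those called lower in 1, grey points those called lower in neither, and the red ring marks the member called higher in 1; the members lie along the diagonal, with 10 of them at least 4-fold lower and called in both labels.

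The size of this difference varied widely between members. Members at least 4-fold lower at ZT15 numbered 10 in RTX430 and 13 in SC224, and 10 were at least 4-fold lower and called in both. The same counts over all genes were not made. How many members were called depended on the scaling. Scaling by the library total alone moved the median of all genes by 0.40 in RTX430 and 0.52 in SC224, and it gave 17 members lower and 5 higher in RTX430 and 19 lower and 3 higher in SC224. With that scaling 5.21% and 4.8% of all genes were lower and 25.3% and 32.1% higher, and the medians of the members were -0.21 and -0.35, against 0.44 and 0.56 for all genes. Leaving out any 1 library gave 21 to 27 calls in RTX430 and 25 to 34 in SC224.

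The most pronounced case, Sobic.008G026800, had 0.798, 1.66 and 2.36 CPM in RTX430 controls at ZT15, against 188, 104 and 348 CPM at ZT9 and 510, 361 and 598 CPM at ZT6. In SC224 it had 1.19, 0.251 and 0 CPM at ZT15, against 188, 432 and 129 CPM at ZT9 and 406, 514 and 402 CPM at ZT6. Every library at ZT15 was thus at least an order of magnitude below every library at ZT6 and ZT9. The log2 difference was -7.58 ± 0.60 (SE) in RTX430, with an adjusted p of 6.68e-12 (edgeR), and -9.32 ± 0.67 in SC224, with an adjusted p of 5.84e-13. Under heat this gene gained little in absolute terms at ZT15, with 2.96, 5.47 and 1.23 CPM in heated RTX430 leaves against 1.27, 0 and 0.159 CPM in controls, groups that overlap. In Macia it had 6.15, 22.8 and 4.52 CPM in heated leaves, against 1.97, 0.661 and 0.126 CPM in controls, groups that do not overlap.

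The same pattern was seen in Sobic.007G092000, the member with the largest heat response. It had 1.86, 0.752 and 1.45 CPM in RTX430 controls of the cold experiment at ZT15, against 67.8, 51.03 and 18.3 CPM at ZT9 and 61.4, 60.3 and 47.7 CPM at ZT6, a log2 difference of -5.26 ± 0.49 (SE) with an adjusted p of 2.59e-10 (edgeR). In SC224 controls it had 1.53, 0.690 and 0.736 CPM at ZT15, against 51.5, 45.5 and 31.7 CPM at ZT9, and the difference was -5.46 ± 0.50 with an adjusted p of 1.83e-10. The drop in level at ZT15 was therefore present in controls of both experiments and in all 4 labels.

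The member called higher at ZT15 was Sobic.010G220500, named after its values were seen. It had 143, 141 and 121 CPM in RTX430 controls at ZT15, against 45.99, 64.9 and 49.4 CPM at ZT9 and 94.9, 114 and 69.5 CPM at ZT6, so all ZT15 libraries were above all the others. The log2 difference was 0.94 ± 0.21 (SE) with an adjusted p of 0.0013 (edgeR). In SC224 its ZT15 libraries, at 71.6, 80.8 and 76.9 CPM, lay between those at ZT9 and those at ZT6, and the difference was 0.03 ± 0.22 with an adjusted p of 0.959.

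The controls of the heat experiment, whose values entered the rule, are given as a description. In RTX430, 34 members were called lower at ZT15 than at ZT6 and ZT9 and 1 higher, and in Macia 36 lower and 0 higher, where 11.3% and 11.6% of all genes were lower and higher in RTX430 and 10.9% and 8.87% in Macia. Without the mixed library, 27 members were called lower and 0 higher in RTX430. Over the 4 times, the control mean was lowest at ZT15 for 43 members in heat RTX430, 45 in heat Macia, 34 in cold RTX430 and 40 in cold SC224, against 23.1%, 26.1%, 25% and 24.4% of all genes. Without the mixed libraries these counts were 43 in heat RTX430 and 39 in cold SC224. Counts of lowest and highest means were made on the TMM scale alone. The highest control mean was most often at ZT1, for 26, 29, 25 and 31 members in the same order of labels, where ZT1 was highest for 31.4%, 32.7%, 33.2% and 34.3% of all genes, and for 28 in cold SC224 without its mixed library. The median of the members' means in cold RTX430 controls was 7.72 CPM at ZT15, after 24.1 CPM at ZT1, 22.1 CPM at ZT6 and 14.5 CPM at ZT9. In cold SC224 controls it was 7.23 CPM at ZT15, after 18.7, 18.2 and 13.2 CPM.

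The heated level at ZT15 was set beside the control levels of the same label at the other times. As a share of the mean control level at ZT1, ZT6 and ZT9, the median member stood at 110.6% in heated RTX430 leaves at ZT15, against 45% in controls at ZT15, and at 105.5% in heated Macia leaves, against 42.2% in controls. Without the mixed library the RTX430 control share was 45.7%. The heated group mean at ZT15 was above all 3 earlier control means for 23 members in each label, within their range for 27 in RTX430 and 24 in Macia, and below all of them for 9 and 12. It was the highest of all 8 groups of a label for 17 members in RTX430 and 11 in Macia. Such counts were not made for all genes, so they are given without a reading.

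**Figure D4:**
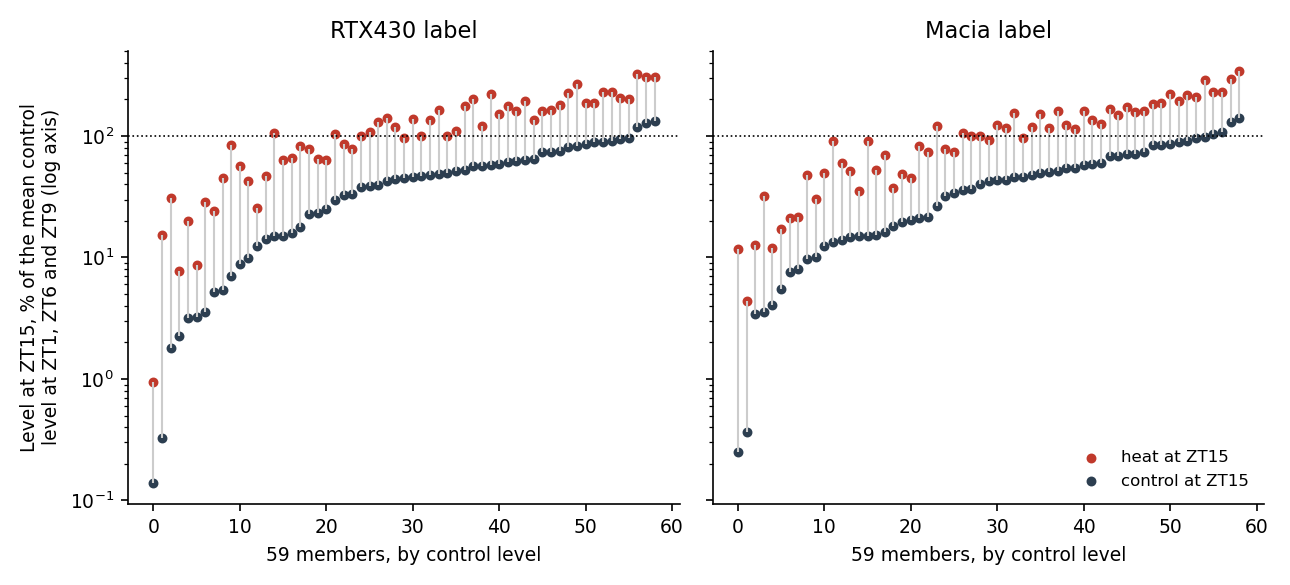
Level at ZT15 as a percent of the mean control level at ZT1, ZT6 and ZT9 (log axis), for each of the 59 members, ordered by their control level, in the RTX430 label (left panel) and the Macia label (right panel) of the heat experiment. Levels are on the TMM scale, and the percentages depend on that scaling. Red points are heated leaves and dark points controls, joined by a line per member, and the dotted line marks equality; the red points have medians of 110.6% and 105.5% and the dark points 45% and 42.2%, and at the left end both stay far under the line.

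The 23 members lower at ZT15 in both labels of the cold experiment stayed further below their level at the other times. In RTX430 their median level at ZT15 was 56.4% of it in heated leaves, against 14.1% in controls. The Macia medians were 51.7% in heated leaves, against 15.3% in controls. These shares too are on the TMM scale alone. In RTX430 the heated mean of 9 of the 23 was below all 3 earlier control means, 13 were within their range and 1 was above, and in Macia the counts were 10, 10 and 3. Their median log2 fold change under heat at ZT15 was 1.77 in RTX430 and 1.54 in Macia, while it was 1.33 and 1.18 for the 23 members lower in neither label. These medians describe members chosen on that same heat response and carry no test.

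Sobic.001G118100 shows this in an abundant gene. It had 167, 134 and 66.9 CPM in heated RTX430 leaves at ZT15, against 16.2, 17.1 and 12.4 CPM in controls, and 173, 363 and 112 CPM in heated Macia leaves, against 73.9, 52.6 and 24.6 CPM in controls. Its RTX430 controls held 210 to 310 CPM at ZT9, 361 to 781 CPM at ZT6 and 365 to 575 CPM at ZT1, so the heated leaves at ZT15 were below every earlier control library. In Macia the ZT9 controls held 164 to 195 CPM, and the heated libraries at ZT15 lay below, within and above that range. In the cold experiment its controls were lower at ZT15 by a log2 difference of -3.62 ± 0.33 (SE) in RTX430 and -4.06 ± 0.34 in SC224, with adjusted p of 2.23e-10 and 3.06e-11 (edgeR).

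Cold at ZT6, ZT9 and ZT15, whose responses the rule did not use, gave few calls among the members and among all genes. In RTX430, 1 member was called raised at ZT6, 3 at ZT9 and 0 at ZT15, where 2.37%, 1.76% and 0.789% of all genes were. For cold RTX430, 0, 0 and 1 members were called lowered at these times, where 0.827%, 0.362% and 0.214% of all genes were. In SC224, 1 member was called raised at ZT6, 1 at ZT9 and 3 at ZT15, where 2.04%, 2.2% and 1.01% of all genes were. None was called lowered in SC224 at these times, where 0.806%, 0.51% and 0.0877% of all genes were. These are 1 to 3 members a comparison, and none of the 6 comparisons had more. A count of 1 is 1.69% of the members and a count of 3 is 5.08%. Some of these shares lie above and some below those of all genes, and they rest on too few members to be read. The members' median log2 fold change was -0.11, -0.12 and 0.08 in RTX430 at ZT6, ZT9 and ZT15, and -0.03, 0.06 and 0.13 in SC224. All 3 cold libraries stood above all 3 controls at ZT15 for 8 members in RTX430 and 6 in SC224 and below them for 6 and 3, against 6.47% and 9.89% of all genes above and 5.77% and 9.67% below. At ZT6 and ZT9 the cold libraries stood above all controls for 5 and 5 members in RTX430, against 10.4% and 7.09% of all genes, and below for 7 and 7, against 13.7% and 5.19%. The counts in SC224 were 5 and 10 above, against 8.57% and 10.6%, and 5 and 7 below, against 8.19% and 9.38%. A call missed does not show that a member did not respond: the median standard error of these fold changes was 0.33 to 0.36.

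**Figure D5:**
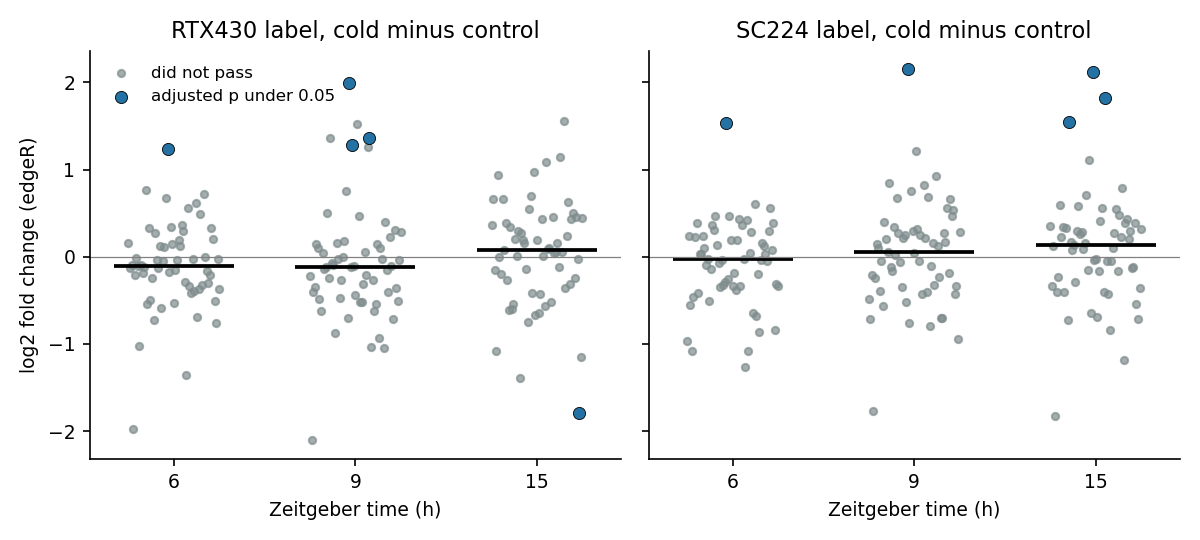
Log2 fold change (edgeR, cold minus control) of the 59 members at ZT6, ZT9 and ZT15 in the RTX430 label (left panel) and the SC224 label (right panel) of the cold experiment. Blue points passed an adjusted p under 0.05, grey points did not, and black bars are medians; medians lie between -0.12 and 0.13, and 1 to 3 points are blue at each time in each label.

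The member with the most cold calls was Sobic.001G422100, which rose at ZT6 and ZT9 in both labels. It had 118, 78.1 and 128 CPM in cold RTX430 leaves at ZT9, against 34.8, 33.6 and 11.7 CPM in controls, and 105, 116 and 140 CPM in cold SC224 leaves, against 35.6, 28.6 and 16.7 CPM in controls. The groups do not overlap, and the log2 fold change was 2.00 ± 0.36 (SE) in RTX430 and 2.15 ± 0.36 in SC224, with adjusted p of 5.21e-04 and 1.31e-04 (edgeR). Fitted on the libraries concerned alone, the RTX430 call at ZT9 was lost, with an adjusted p of 0.241. At ZT6 it had 377, 373 and 367 CPM in cold RTX430 leaves, against 137, 174 and 163 CPM in controls, a log2 fold change of 1.24 ± 0.35 with an adjusted p of 0.0354. That call was lost without any 1 of the 6 libraries, with adjusted p of 0.0829 to 0.148 and a log2 fold change of 1.14 to 1.31. In SC224 at ZT6 it had 204, 251 and 299 CPM in cold leaves, against 100, 57.1 and 104 CPM in controls, a log2 fold change of 1.53 ± 0.35 with an adjusted p of 0.0069, and that call was lost without control replicate 2, with a log2 fold change of 1.30 and an adjusted p of 0.0896. At ZT15 the log2 fold change was 0.70 ± 0.36 in RTX430 and 1.11 ± 0.36 in SC224, with adjusted p of 0.702 and 0.180. Whether the response differed between ZT15 and the earlier times was tested directly, and the adjusted p was 0.418 in RTX430 and 0.840 in SC224.

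At ZT15, the time at which heat raised the members, cold raised Sobic.002G176200 in SC224. It had 76.8, 119 and 96.5 CPM in cold leaves, against 15.3, 29.6 and 21.7 CPM in controls, a log2 fold change of 2.13 ± 0.35 (SE) with an adjusted p of 2.25e-04 (edgeR), and it stayed called without any 1 of the 6 libraries. In cold RTX430 leaves it had 110, 79.5 and 84.5 CPM at ZT15, against 42.3, 45.1 and 51.8 CPM in controls, groups that do not overlap, and a log2 fold change of 0.98 ± 0.33 with an adjusted p of 0.235. It was also called raised by cold in RTX430 at ZT9, with a log2 fold change of 1.29 ± 0.36 and an adjusted p of 0.0486 (edgeR). That call was lost without any of 4 single libraries. Under heat at ZT15 it had 22.6, 21.7 and 151 CPM in RTX430, against 11.9, 22.9 and 11.3 CPM in controls, so that replicate 3 alone stood apart. This gene and the next were chosen after their values were seen.

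The member lowered by cold at ZT15 was Sobic.001G118100 in RTX430. It had 7.38, 8.77 and 7.47 CPM in cold leaves, against 13.6, 32.8 and 36.2 CPM in controls, a log2 fold change of -1.80 ± 0.34 (SE) with an adjusted p of 0.0019 (edgeR). Fitted on the RTX430 libraries at ZT15 alone, the adjusted p was 0.200. In SC224 it had 14.5, 5.65 and 12.7 CPM in cold leaves, against 16.7, 10.6 and 26.9 CPM in controls, groups that overlap, and a log2 fold change of -0.71 ± 0.34 with an adjusted p of 0.601. Heat at the same time of day gave values in the other direction for this gene in both labels of the heat experiment, as given above.

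The difference between the cold response at ZT15 and the mean of those at ZT6 and ZT9 was called for 1 member in RTX430, as lower at ZT15, and for 0 in SC224. Of all genes, 0.0658% were called higher and 0.279% lower in RTX430, and 0.0493% and 0.0822% in SC224. In SC224, edgeR gave 7 members with an unadjusted p under 0.05, and DESeq2 called 2. The members' median of that difference was 0.20 in RTX430 and 0.13 in SC224, against 0.06 and 0.01 over all genes.

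Between the labels of the cold experiment, unstressed leaves differed in shares of the members close to or under those of all genes. Averaged over ZT6, ZT9 and ZT15, 3 members were higher in SC224 than in RTX430 and 5 lower, which is 5.08% and 8.47% of the members, against 8.2% and 9.13% of all genes. The members' median log2 difference was -0.10, against 0.01 over all genes. Directions here follow the labels as given. Whether the cold labels are exchanged, which would turn each of them, was not tested. Sobic.006G079350 stood furthest apart, with a median of 7.32 CPM over the 9 SC224 control libraries (lowest 4.05, highest 13.2), against a median of 1.39 CPM over the 9 RTX430 libraries (lowest 0.728, highest 2.04). The labels do not overlap in it, and the log2 difference was 2.39 ± 0.19 (SE) with an adjusted p of 1.73e-12 (edgeR). Among members lower in SC224, Sobic.008G033200 had a log2 difference of -0.89 ± 0.27 with an adjusted p of 0.016. That call was lost without RTX430 ZT9 control replicate 3 (log2 difference -0.60, adjusted p 0.0982) and in the fit to the libraries concerned (adjusted p 0.0626). Its 9 libraries a label overlapped, with 22.2 to 3538 CPM in SC224 and 64.3 to 3889 CPM in RTX430. That gene was also the member with the highest mean control level at ZT1 in SC224, with 4097, 1866 and 1984 CPM in the 3 SC224 libraries, the first of which is the mixed one.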

How the data were processed

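The authors deposited a table of counts per gene for leaf polyA RNA sequenced as 75 nt single-end reads. HISAT2 and DESeq2 are listed in the submitters' processing notes without version or role; the counter, genome build, annotation and strand setting are not given in the sources used here. Samples were grouped by label, and the members and lists were chosen with earlier results of these data known.

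From the deposited counts, genes were kept with edgeR's filterByExpr (minimum count 10, minimum total 15), scaled by TMM, and tested per experiment with edgeR's quasi-likelihood test (R 4.3.3, edgeR 4.0.16), with Benjamini-Hochberg adjusted p under 0.05 over all genes as the call. Tests were tried on simulated data. Fits cover all 48 libraries of an experiment. Levels at or under 3 counts per library are at the floor; floors cover counting error only, since copies made by PCR are not told apart. No 2 replicates held identical counts. Replicate numbers were not treated as pairs in the main fits. Over 46 pairs of the same number, the correlation of deviations ran from -0.535 to 0.652, with 17 over 0.1. No reference was made for these values, so pairing was not tested.

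Genes named are the members with the largest smaller D at ZT15 (12), those at the edge of the threshold (3 on each side), the 5 most abundant in heated leaves at ZT15, and up to 3 per cold-experiment contrast and direction; because identifiers carry no names, few of these are printed. Alternatives were DESeq2 1.42.0, DESeq2's size factors, library totals, no filter, the replicate block, fits to the libraries concerned, and leaving out each replicate.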

Additional observations from a re-analysis of the deposited data

Results flagged for a closer look

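The cold response of Sobic.005G217000 in RTX430 differed between ZT15 and the mean of ZT6 and ZT9 by -1.49 ± 0.33 log2 units (SE), with an adjusted p of 0.0289 (edgeR), a test of the difference itself. It had 3.48, 4.14 and 1.76 CPM in cold leaves at ZT15, against 3.46, 4.82 and 5.27 CPM in controls, and 12.8, 18.7 and 14.5 CPM in cold leaves at ZT9, against 5.11, 7.32 and 5.09 CPM in controls. The groups overlap at ZT15 and not at ZT9. In SC224 the difference was -1.39 ± 0.31 with an adjusted p of 0.0529. The call in RTX430 was lost with library totals (adjusted p 0.196), without a filter (0.0640), in the fit to the libraries concerned (0.165) and without any of 5 single libraries, which are ZT15 stress replicates 1 and 4, ZT15 control replicates 2 and 3 and ZT6 control replicate 2 (adjusted p up to 0.159).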

How the results depend on the processing

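Of 1252 recomputed values for 88 single-gene results, 1124 kept their call, 128 lost it and 0 changed sign. Of the 88 results, 33 lost their call at least once. Only results called in the main fit were recomputed. Part of them are heat responses at ZT15, whose direction the rule fixed, so these counts are no test of how firm the results are. In unstressed cold-experiment leaves, the members called at ZT15 against ZT6 and ZT9 numbered 26 in RTX430 (21 to 27 without any 1 library) and 34 in SC224 (25 to 34), with 22 in SC224 when scaled by library totals. Cold responses rested on few calls. In RTX430 at ZT15 the count of 1 became 2 with the replicate block (1 raised, 1 lowered) and 0 in the fit to the libraries concerned, which tests 48 of the members (1 to 2 without 1 library); at ZT6 the count of 1 became 0 with library totals, without the filter and without any 1 library (0 to 0); at ZT9 the count of 3 became 0 in the fit to the libraries concerned (2 to 3). In SC224 at ZT15 the count of 3 became 1 with library totals (1 to 3); at ZT6 it was 0 to 1; at ZT9 the count of 1 became 2 with library totals, 1 of them lowered (1 to 2). For ZT15 minus ZT6 and ZT9, the count of 1 in RTX430 became 0 with library totals, without the filter and in the fit to the libraries concerned (0 to 1), and the count of 0 in SC224 became 1 with the replicate block and 2 with DESeq2 (0 to 1). Between labels, the count of 8 (3 higher, 5 lower) became 5 in the fit to the libraries concerned (3 higher, 2 lower), 6 with library totals (3 and 3) and 10 with the replicate block (6 to 9). Under heat at ZT15 the count was 55 in RTX430 (47 to 51) and 49 in Macia (38 to 53), with 37 and 34 under library totals, and 31 in Macia in the fit to the libraries concerned. Where no value above shows it, the cause was not tested.

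The rule itself gave 48 to 83 genes without any 1 of the heat libraries at ZT15, with 43 of the 59 members among the 48 (without Macia stress replicate 3) and 57 among the 83 (without Macia stress replicate 2). Without the mixed RTX430 control it gave 63 genes, 55 of them members. It gave 51 genes without median centring and 52 at a mean of at least 5 CPM. Chosen after seeing the data, 2 settings left out the library labelled ZT2 (58 genes) or the mixed cold library (55 genes). Members at or under 3 counts in controls limit the precision of their fold changes.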
